A study of Danio rerio with 8 samples.

Results

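The proteasome genes described here are the 52 of 24221 rows of the deposited count table whose gene symbol begins with psm, a letter from a to g and a digit. They comprise 9 genes of the alpha ring of the core particle, 7 of its constitutive beta ring, 5 of the immunoproteasome and 7 ATPase and 12 non-ATPase genes of the regulatory particle. A further 4 encode activators, 1 an inhibitor and 6 assembly chaperones, and 1, psmc3ip, fits the naming pattern but encodes a meiotic recombination factor, so it is given apart. Of the 52, 51 had enough reads to be tested, and psma5, which encodes an alpha subunit, was not tested at 0 to 1 reads in a library. Every core particle holds this subunit, so its near-zero count is doubtful as a measure of its expression, and the cause was not tested. RNA came from cells carrying GFP under the mpeg promoter, which marks the macrophage lineage, sorted by flow cytometry from dissociated zebrafish larvae (strain TL), 6 days post fertilization. There were 4 libraries of rraga mutants and 4 of their wild-type siblings, all raised in water with methylene blue and PTU, an inhibitor of pigment formation, and told apart by confocal imaging on days 4 and 5. rraga encodes RagA, a GTPase that brings the growth regulator mTORC1 to the lysosome. The mutant allele, the number of larvae in a library and any clutch shared between libraries are not stated in the labels.

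The proteasome is the protease that degrades most ubiquitin-tagged proteins of the cytosol and nucleus. Its barrel-shaped core is built of outer alpha rings, which gate the entry, and inner beta rings, in which PSMB5, PSMB6 and PSMB7 carry the active sites. A regulatory particle of ATPases and non-ATPases binds, unfolds and feeds in the substrate. In immune cells, and in other cells exposed to interferon gamma, PSMB8, PSMB9 and PSMB10 take the places of the catalytic subunits and form the immunoproteasome, which favours peptides suited to MHC class I. Zebrafish carry additional genes of this kind in their MHC region, psmb12 and psmb13a among them.

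The libraries held 24940664 to 30911560 counts in mutants and 25530526 to 29147340 in siblings. Libraries carry the numbers 1, 2, 4 and 5 of their columns in each genotype, and values are listed in that order. Levels are CPM, read counts relative to the TMM-scaled library size, and CPM per kb of gene length where genes are set side by side. rraga itself was higher in mutants (199 ± 14.3 CPM in mutants and 129 ± 9.97 CPM in siblings, SD, n = 4), which does not check the genotype. Among all 16086 tested genes 14.5% were called higher and 13.9% lower (edgeR, adjusted p under 0.05), the shares to set beside the marker counts that follow. Of 9 listed markers of the macrophage lineage, all tested, 1 rose and 4 fell. The riser was spi1b (log2 fold change of mutant over sibling 1.06). cd74a (-3.30), cd74b (-3.36), mpeg1.1 (-1.82) and lcp1 (-0.64) fell. The summed level of the 9 was 5142 to 6320 CPM in mutants and 6085 to 7310 CPM in siblings. mpeg1.1, whose promoter drove the sort, stood at 48.9, 89.5, 41.7 and 82.0 CPM in mutants, against 221, 249.9, 229 and 223 CPM in siblings, so it was lower in every mutant library. Lymphoid markers, whose cells are rich in immunoproteasome, summed to 39.3 to 58.9 CPM in mutants and 64.7 to 90.8 CPM in siblings. They were 6 genes (5 tested, 1 fell, 0 rose). rag2, zap70 and cd4-1 stood at or below 1.23 CPM in every library, so most of the sum came from the other lymphoid markers. Skeletal muscle markers summed to 444 to 3984 CPM in mutants and 2573 to 4667 CPM in siblings over 7 genes (6 tested, 0 passed). The summed epithelial markers stood at 129.8 to 284 CPM in mutants and 278 to 830 CPM in siblings over 6 genes (5 tested, 2 fell), the neutrophil markers at 518 to 1713 CPM in mutants and 579.6 to 2212 CPM in siblings over 5 rows (4 tested, 2 fell) and the neuronal markers at 4.39 to 15.2 CPM in mutants and 6.94 to 31.9 CPM in siblings over 5 genes (4 tested, 0 passed). These cells were sequenced in bulk, so more RNA per cell and more cells of a type cannot be told apart, and the part that other cells had in the results below was not tested.

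The comparison asked whether proteasome transcripts differ when rraga is mutated. Of the 51 tested genes 44 rose in mutants, 0 fell and 7 did not pass at 0.05 (quasi-likelihood test of edgeR, p-values adjusted by Benjamini-Hochberg over 16086 genes). Among all tested genes 14.5% were called higher and 13.9% lower. The median log2 fold change of the proteasome genes was 0.77, a fold of 1.70, against -0.09 for all tested genes, of which 11.5% lay above that median. In 41 of the 51 every mutant library lay above every sibling library, as it did in 15.7% of all tested genes. Of the 44 called genes, 35 had a fitted fold over 1.5. A rise beyond a fold of 1.5 passed edgeR's glmTreat for 11 and a fall for 0, against 5.35% and 4.61% of all tested genes. The 11 were psma6a, psma6l, psmb3, psmb8a, psmb10, psmb13a, psmc1b, psmc3, psmd8, psmd12 and psme2. Scaled by library size alone, 40 rose and 1 fell, with the median at 0.59 while that of all tested genes was -0.26 in place of -0.09, and the share of higher genes among all called genes was 34.7%, against 51.1% as reported. Under that scaling psmb9a, psmd9, psmd13 and psmg2 were no longer called. Without both libraries numbered 2, an alternative added after the data were seen, 40 rose and 0 fell.

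**Figure D1:**
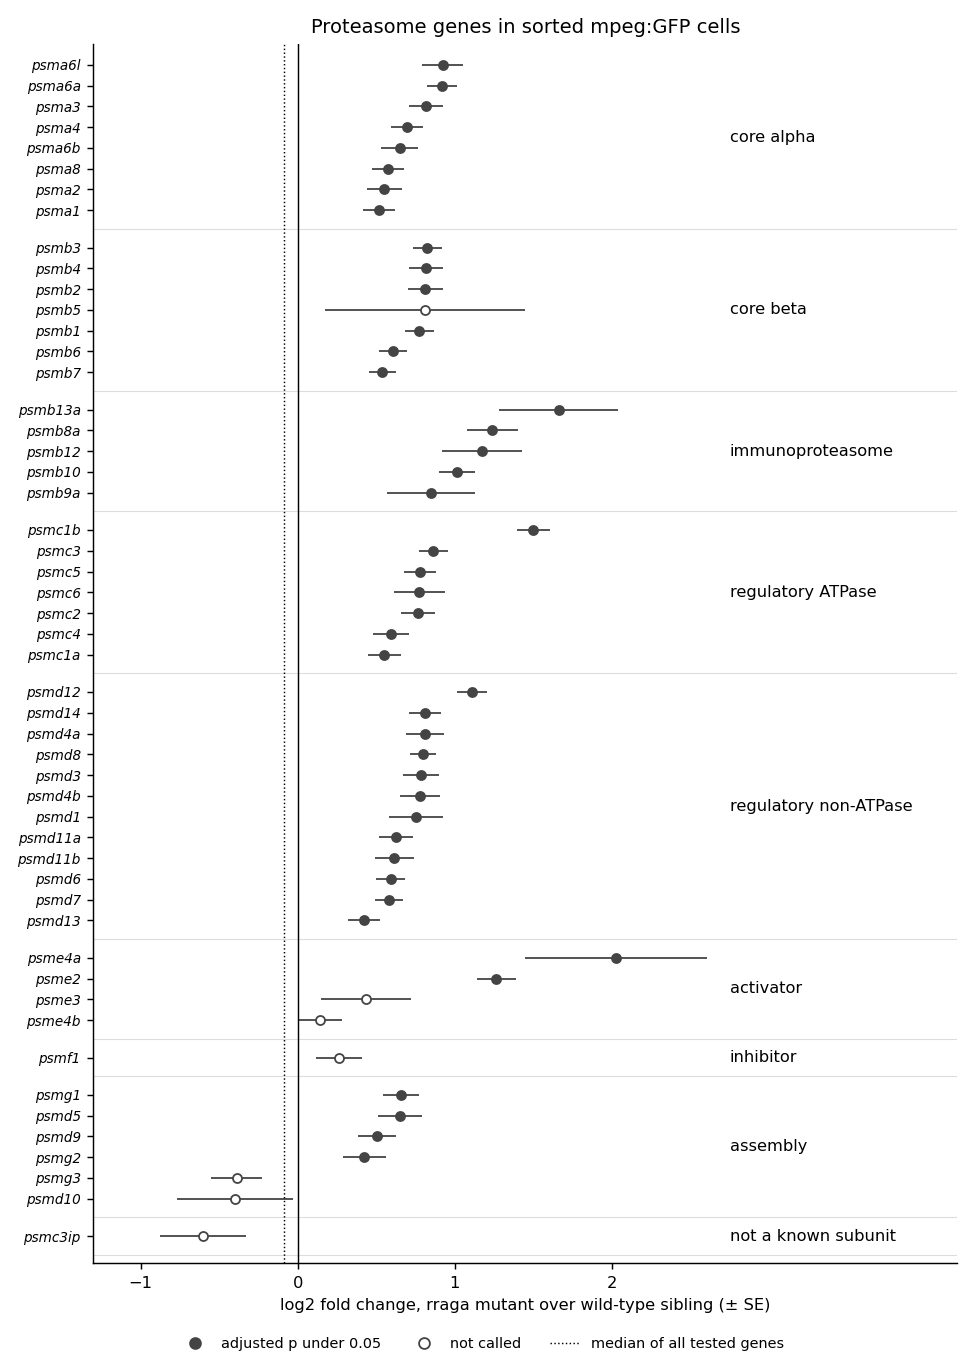
Log2 fold change of the 51 tested proteasome genes, rraga mutant over wild-type sibling, by class; points are edgeR estimates with their standard error, filled where the adjusted p was under 0.05, and the dotted line is the median of all tested genes, -0.09. The 44 called genes lie to the right of 0, and the 3 points to its left, psmg3, psmd10 and psmc3ip, are open.

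Among the 34 tested constitutive genes of core and regulatory particle, 33 rose, and their log2 fold changes ran from 0.42 for psmd13 to 1.501 for psmc1b. Compared within each library number, mutant library 1 had the higher level in 47 of 51 genes, library 2 in 49, library 4 in 47 and library 5 in 47, while 45.8% to 49.0% of all tested genes were higher in the mutant library of a number. Proteasome genes together took 0.858 ± 0.0443% of counts in mutants and 0.578 ± 0.0342% in siblings (SD, n = 4). Single libraries held 0.875, 0.893, 0.872 and 0.793% in mutants, against 0.601, 0.606, 0.532 and 0.574% in siblings, and the genotypes did not overlap. The genes lie on 20 chromosomes, with 9 of them on chromosome 19, and 1, psmd10, on chromosome 14, which also carries rraga.

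**Figure D2:**
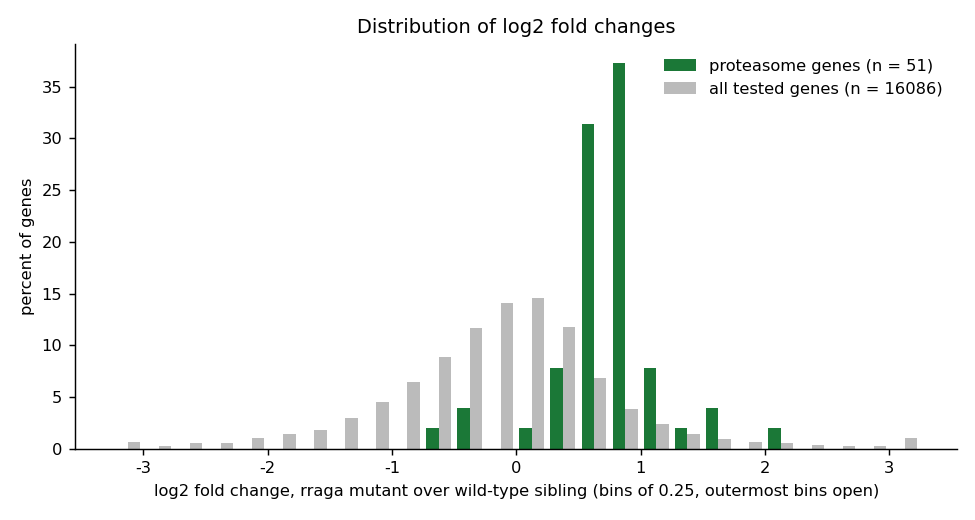
Percent of genes in bins of 0.25 of the log2 fold change, rraga mutant over wild-type sibling, for the 51 tested proteasome genes (green) and all 16086 tested genes (grey). Proteasome genes gather between 0.5 and 1, to the right of the centre of all genes.

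In the alpha ring all 8 tested genes rose, by folds of 1.43 to 1.90 (median log2 fold change 0.67). The ring took 0.196 ± 0.0126% of counts in mutants and 0.138 ± 0.00887% in siblings. psma6a, a gene for the first subunit of the ring, had 165, 164, 161 and 146 CPM in mutants, against 92.3, 79.0, 83.9 and 80.7 CPM in siblings (log2 fold change 0.92, SE 0.0933, adjusted p = 1.32e-04). psma6l, a further gene of the same subunit type, had 95.4, 107, 91.8 and 76.1 CPM in mutants, against 56.5, 47.0, 47.4 and 44.6 CPM in siblings (log2 fold change 0.92, SE 0.131, adjusted p = 8.66e-04). Its mutant and sibling libraries stood apart, as did those of the other tested alpha genes. psma3, the most abundant alpha gene per length (411 CPM per kb in mutants and 233 in siblings), had 556, 573, 509 and 449.5 CPM in mutants, against 320.2, 313, 285 and 266 CPM in siblings (log2 fold change 0.82, SE 0.111, adjusted p = 6.81e-04). The remaining 5, psma1, psma2, psma4, psma6b and psma8, rose 1.43- to 1.62-fold. psma2 and psma6b overlap other genes that hold at least 10% of their counts. For psma6b this is nfkbiaa on the other strand, with 217852 reads over all libraries against 15161 of psma6b, so the psma6b values are uncertain. psma6a, psma6b and psma6l are related in sequence, so reads may have been split among them.

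In the constitutive beta ring 6 of 7 genes rose, by folds of 1.45 to 1.77. The ring took 0.178 ± 0.00845% of counts in mutants and 0.122 ± 0.00772% in siblings. The structural subunit gene psmb3 had 378, 390.2, 392 and 326 CPM in mutants, against 220.1, 206, 206 and 206 CPM in siblings (log2 fold change 0.83, SE 0.0933, adjusted p = 2.47e-04). psmb1, also without an active site and the most abundant proteasome gene per length (449 CPM per kb in mutants and 262 in siblings), had 447, 442, 424 and 377 CPM in mutants, against 259.9, 248, 248 and 232 CPM in siblings (log2 fold change 0.78, SE 0.0931, adjusted p = 3.46e-04), and psmb4 had 309, 263, 261 and 250.4 CPM in mutants, against 175, 144, 151 and 145 CPM in siblings (log2 fold change 0.82, SE 0.108, adjusted p = 5.92e-04). Of the catalytic genes, psmb6 for the caspase-like site rose 1.53-fold and psmb7 for the trypsin-like site 1.45-fold, and psmb2, a structural member, rose 1.76-fold. psmb5, for the chymotrypsin-like site, was far below its partners, at 21.1, 7.37, 15.96 and 20.3 CPM in mutants, against 14.2, 0.986, 8.53 and 13.2 CPM in siblings. It was lowest in library 2 of both genotypes, with 168 reads in the mutant and 29 in the sibling, the genotypes overlapped, and it did not pass (log2 fold change 0.81, SE 0.636, adjusted p = 0.387). With library number as a block its log2 fold change was 1.14 (edgeR's adjusted p = 0.0594), and without both libraries numbered 2 it was 0.67 (adjusted p = 0.0890).

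**Figure D3:**
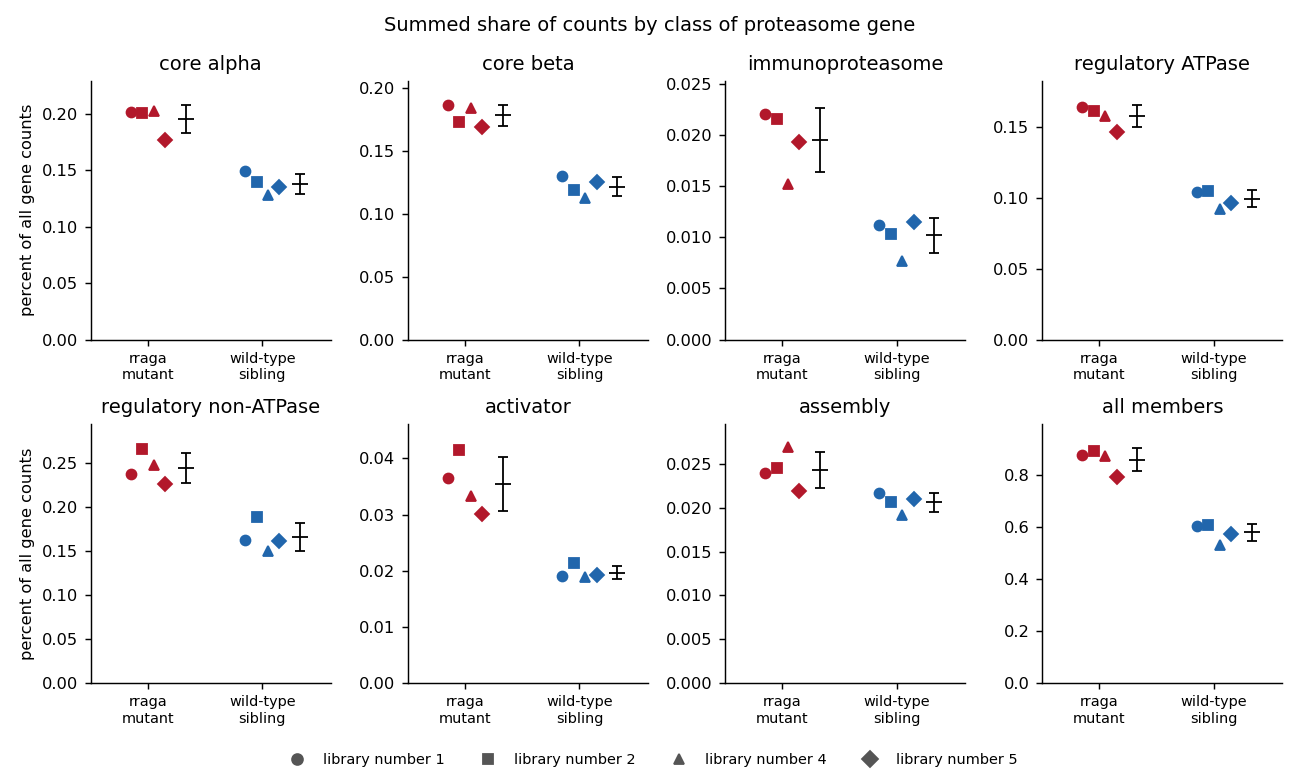
Percent of all gene counts that fell on each class of proteasome gene, per library (points, shaped by library number), with mean and SD (n = 4) beside them; mutants are left of siblings and axes start at 0. Mutants lie above siblings without overlap in the 8 panels shown, by little for assembly genes; the inhibitor, not drawn, overlapped.

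All 5 immunoproteasome genes rose, by folds of 1.80 to 3.17 (median log2 fold change 1.18, against 0.77 over all proteasome genes). Their share was 0.0195 ± 0.00313% of counts in mutants and 0.0102 ± 0.00173% in siblings, so they were a small part of proteasome transcripts. psmb10, which encodes MECL-1, the induced counterpart of PSMB7, lies at GRCz11 chr4:77207693-77218637 and had 95.3, 96.4, 82.9 and 78.7 CPM in mutants, against 47.6, 40.7, 39.5 and 47.2 CPM in siblings (log2 fold change 1.01, SE 0.116, adjusted p = 2.61e-04). The mutant libraries were all above the sibling libraries. psmb8a, which encodes LMP7, the counterpart of PSMB5, lies at chr19:7105838-7144548 and had 59.7, 58.5, 37.7 and 50.1 CPM in mutants, against 23.4, 22.3, 18.98 and 22.5 CPM in siblings (log2 fold change 1.24, SE 0.161, adjusted p = 5.33e-04). Here too the genotypes stood apart, with library 4 lowest in both.

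The neighbouring psmb12 (chr19:7115223-7119456) had 46.8, 50.3, 25.9 and 42.8 CPM in mutants, against 20.9, 19.9, 11.3 and 21.3 CPM in siblings (log2 fold change 1.18, SE 0.254, adjusted p = 0.00762). psmb13a (chr19:7111779-7144585) had 17.9, 13.9, 6.27 and 12.1 CPM in mutants, against 4.89, 4.76, 1.88 and 4.30 CPM in siblings (log2 fold change 1.66, SE 0.379, adjusted p = 0.00990), on 161 to 491 reads in mutants and 48 to 150 in siblings. The libraries of both genes did not overlap between genotypes, and library 4 was again lowest in each genotype. psmb9a, which encodes LMP2, the counterpart of PSMB6, lies at chr19:7120380-7122373 and had 15.96, 16.9, 7.75 and 14.5 CPM in mutants, against 9.78, 7.38, 5.13 and 8.34 CPM in siblings (log2 fold change 0.85, SE 0.281, adjusted p = 0.0488). Mutant library 4 fell among the siblings, and the call was narrow. It did not hold when mutant library 1 was left out (edgeR's adjusted p = 0.114), nor when mutant library 2 (0.124) or 5 (0.0786) was, nor when sibling library 1 (0.0509), 2 (0.0915), 4 (0.108) or 5 (0.0748) was. The call was also lost with upper-quartile factors (edgeR's adjusted p = 0.0665), library size alone (0.112) and a filter of 5 CPM in 4 libraries (0.0527). On chromosome 19, psmb8a and psmb13a overlap each other on one strand and both overlap psmb12 and psmb9a on the other. No source used here gives the strand setting of the counts, and no such setting would part psmb8a from psmb13a where they overlap. The values of these 4 genes are therefore uncertain, whereas psmb10 overlaps no gene of the table.

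**Figure D4:**
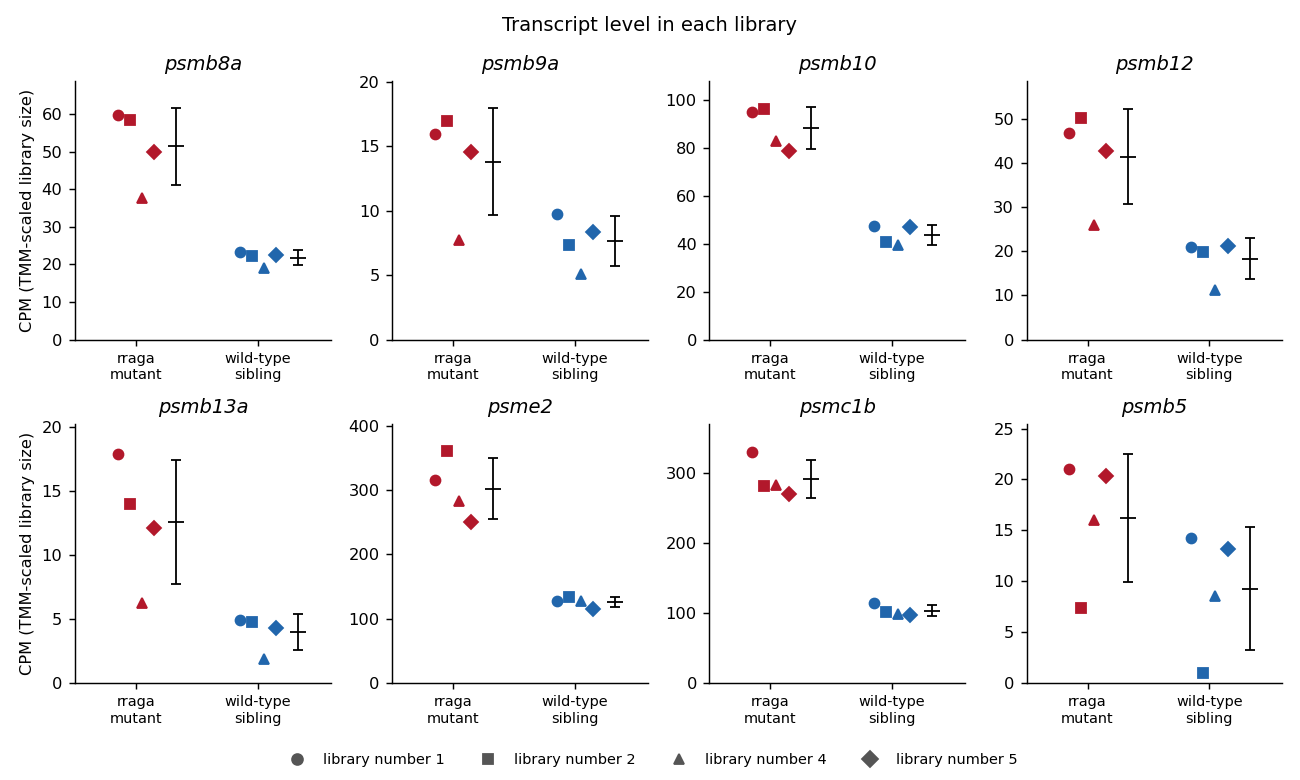
Transcript level in CPM per library for the 5 immunoproteasome genes, the activator gene psme2, the ATPase gene psmc1b and the constitutive psmb5; points are libraries shaped by number, with mean and SD (n = 4) beside them, and axes start at 0. Mutants lie above siblings without overlap for all but psmb9a and psmb5, whose lowest mutant points are library 4 and library 2.

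Of the induced genes, psmb8a, psmb9a and psmb10 were each set against the gene of the constitutive subunit replaced. No ratio was made for psmb12 and psmb13a. The measure was the log2 ratio of counts per length within a library, which library scaling does not change. For psmb10 over psmb7 the ratio was -2.94, -2.89, -3.26 and -3.18 in mutants, against -3.48, -3.58, -3.63 and -3.49 in siblings. All 4 mutant ratios lay above all siblings, and the means differed by 0.47 (exact two-sided permutation test p = 0.0286, the smallest that 4 against 4 libraries allow, and 0.0857 adjusted over 3 ratios, which does not pass 0.05). That test left library numbers unpaired. Paired by number, an exact test of sign flips gave an adjusted p of 0.375, but with 4 pairs it cannot go below 0.125 before adjustment. For psmb9a over psmb6 the ratio was -3.20, -2.98, -4.22 and -3.16 in mutants, against -3.27, -3.53, -4.18 and -3.45 in siblings, with a difference of 0.22 (exact permutation p = 0.486, adjusted 0.729). For psmb8a over psmb5 it was 1.19, 2.68, 0.93 and 0.99 in mutants, against 0.41, 4.19, 0.85 and 0.46 in siblings, with a difference of -0.03 (exact permutation p = 1.00, adjusted 1.00). That value rests on library 2 of both genotypes: without both it was 0.47, without sibling library 2 alone 0.88, and without mutant library 2 alone -0.44. Per length, psmb10 stood at 41.6 CPM per kb in mutants and 20.6 in siblings. psmb7 stood at 348 CPM per kb in mutants and 239 in siblings, so it stayed the higher in both genotypes. psmb6 was likewise above psmb9a in every library. The psmb8a to psmb5 ratio was above 0 in every library, so there the induced gene was the higher. psmb5 stood at only 12.4 CPM per kb in mutants and 7.06 in siblings, against 120 and 78.8 for psmb6. Its low level makes the ratio to psmb8a uncertain, and the cause was not tested.

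All 7 genes for the ATPases of the unfolding ring of the regulatory particle rose, by folds of 1.47 to 2.83. Together they took 0.158 ± 0.00764% of counts in mutants and 0.0993 ± 0.00610% in siblings. psmc1b, which encodes an ATPase called Rpt2 in yeast, had the smallest p of all proteasome genes and 330.5, 281, 283 and 270.2 CPM in mutants, against 114, 102, 98.8 and 96.5 CPM in siblings (log2 fold change 1.501, SE 0.104, adjusted p = 1.49e-05). psmc3 had 251, 263, 231 and 235 CPM in mutants, against 143, 142, 128 and 126 CPM in siblings (log2 fold change 0.86, SE 0.0926, adjusted p = 1.87e-04) and psmc5 had 422, 392, 370.4 and 334 CPM in mutants, against 238, 224, 221 and 201 CPM in siblings (log2 fold change 0.78, SE 0.103, adjusted p = 6.05e-04). In each of these the lowest mutant library exceeded the highest sibling library. psmc6 was the least abundant of the ATPases per length (19.8 CPM per kb in mutants and 11.6 in siblings) and rose 1.71-fold.

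All 12 non-ATPase genes rose, by folds of 1.34 to 2.16, and took 0.244 ± 0.0171% of counts in mutants and 0.165 ± 0.0159% in siblings. psmd12, a lid subunit, had 258, 249, 216 and 223 CPM in mutants, against 107, 114, 107 and 109 CPM in siblings (log2 fold change 1.11, SE 0.0933, adjusted p = 4.46e-05). psmd8, also of the lid, had 258, 277, 278 and 258 CPM in mutants, against 147, 155, 159.8 and 156 CPM in siblings (log2 fold change 0.80, SE 0.0831, adjusted p = 1.58e-04). psmd14, the deubiquitinase that removes ubiquitin chains from substrates, had 239, 244, 251 and 200.4 CPM in mutants, against 139.7, 139.5, 129.6 and 124 CPM in siblings (log2 fold change 0.81, SE 0.102, adjusted p = 4.46e-04). Each of the 12 separated the genotypes without overlap. The ubiquitin receptor genes psmd4a and psmd4b rose 1.76- and 1.72-fold, the scaffold gene psmd1 rose 1.68-fold and psmd13, the smallest rise of the class, 1.34-fold. A row named PSMD2 in capitals, outside the naming pattern and looked up after its values were seen, had 168 ± 30.5 CPM in mutants and 109 ± 14.2 CPM in siblings (SD, n = 4, log2 fold change 0.62, SE 0.147, adjusted p = 0.0117). A row without a gene name, which the reference gene names also match to PSMD2, rose 1.57-fold, and si:rp71-45k5.4, matched to PSMA2, rose 1.52-fold.

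Paralogs of the same subunit were also set against each other. psmc1b over psmc1a had a log2 ratio per length of 3.04, 2.91, 2.85 and 2.96 in mutants, against 1.97, 2.05, 1.97 and 1.99 in siblings, a difference of 0.95 with no overlap. psma6a over psma6b had 1.05, 1.17, 1.13 and 1.18 in mutants, against 0.78, 0.95, 0.88 and 0.83 in siblings, a difference of 0.27, also without overlap. That ratio is uncertain, since psma6b lies across from nfkbiaa, which holds many more reads. Both gave p = 0.0286 in the exact two-sided permutation test, the smallest possible, and 0.0714 adjusted over 5 paralog pairs, so neither passed the adjustment. psmd4a over psmd4b differed by 0.03 and psmd11a over psmd11b by 0.01, less than the spread among libraries of a genotype (SD 0.147 and 0.0885 in mutants, 0.112 and 0.127 in siblings).

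**Figure D5:**
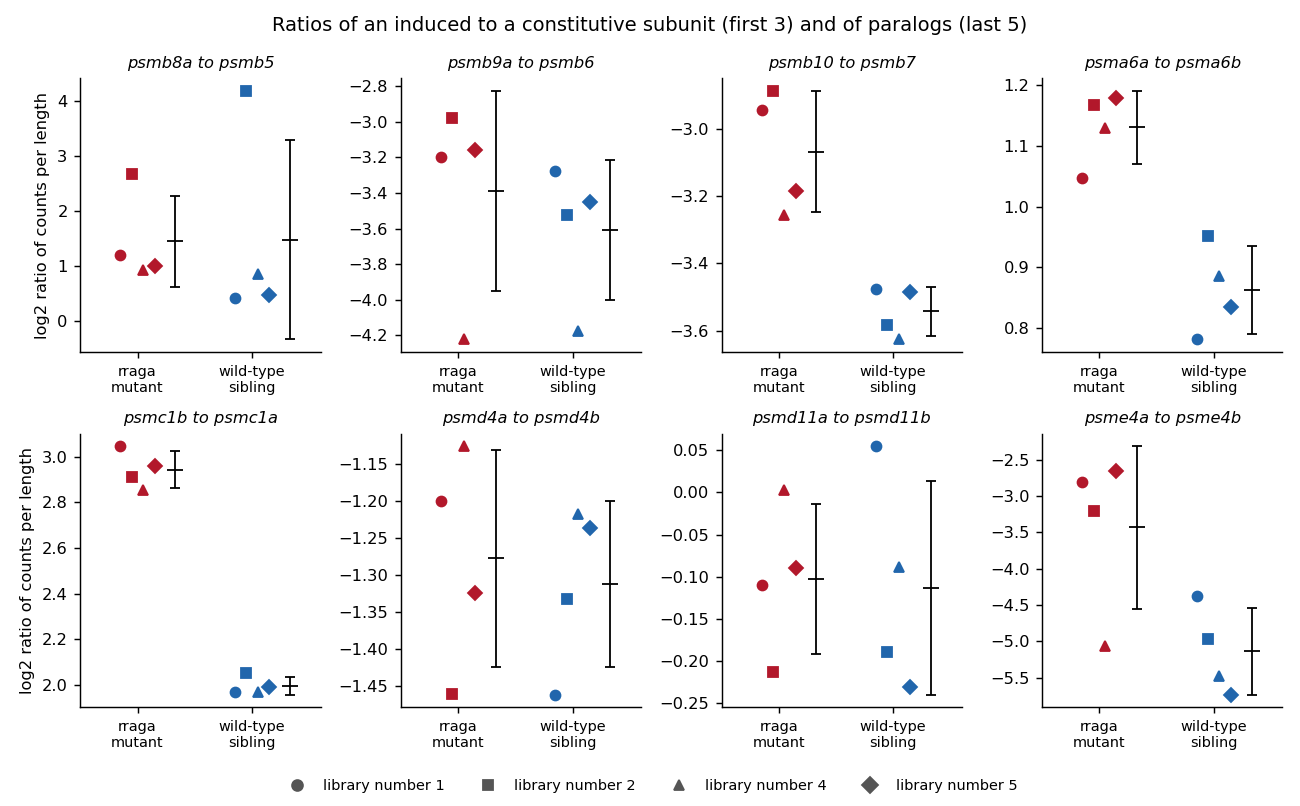
Log2 ratio of counts per length within each library for the 3 induced over constitutive pairs and the 5 paralog pairs; points are libraries shaped by number, with mean and SD (n = 4) beside them, and each panel has its own axis, which does not start at 0. Mutants and siblings separate without overlap for psmb10 to psmb7, psma6a to psma6b and psmc1b to psmc1a, and library 2 stands high in both genotypes for psmb8a to psmb5.

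Of 4 activator genes 2 rose. psme2 encodes the beta subunit of PA28, a cap that opens the core and is induced by interferon gamma in mammals, and had 317, 361, 283 and 251 CPM in mutants, against 128, 134, 127 and 115 CPM in siblings (log2 fold change 1.26, SE 0.125, adjusted p = 1.19e-04), with every mutant library at or above 251 CPM and no sibling library above 134 CPM. psme4a, a gene of the activator PA200, was scarce, with 22 to 167 reads in mutants and 16 to 48 in siblings, or 5.51, 4.43, 0.857 and 5.55 CPM in mutants, against 1.56, 1.16, 0.744 and 0.525 CPM in siblings (log2 fold change 2.03, SE 0.580, adjusted p = 0.0272). Mutant library 4 overlapped the siblings. The gene did not pass when mutant library 1 (edgeR's adjusted p = 0.0685), 2 (0.0575) or 5 (0.0567) was left out, nor when sibling library 2 (0.0512), 4 (0.0688) or 5 (0.0658) was, nor by limma-voom (adjusted p = 0.0575). Its more abundant paralog psme4b had 39.7, 41.9, 29.6 and 35.8 CPM in mutants, against 33.4, 37.2, 33.9 and 28.8 CPM in siblings and did not pass (log2 fold change 0.14, SE 0.139, adjusted p = 0.502), and its log2 fold change was -0.033 scaled by library size alone. The psme4a over psme4b ratio differed by 1.71 on the log2 scale (exact permutation p = 0.0857, adjusted 0.143). psme3, for the nuclear PA28 gamma, had 30.1, 47.2, 39.7 and 17.3 CPM in mutants, against 17.6, 25.4, 27.0 and 29.2 CPM in siblings and did not pass (log2 fold change 0.43, SE 0.287, adjusted p = 0.301), but passed without mutant library 5 (0.0450). It overlaps another gene that holds at least 10% of its count.

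Of 6 assembly chaperone genes 4 rose. psmg1, whose product starts assembly of the alpha ring together with that of psmg2, had 95.6, 119, 119 and 90.9 CPM in mutants, against 66.2, 69.0, 65.1 and 68.9 CPM in siblings (log2 fold change 0.66, SE 0.115, adjusted p = 0.00272). psmg2 had 63.2, 61.3, 73.4 and 57.3 CPM in mutants, against 57.6, 43.9, 47.7 and 40.9 CPM in siblings (log2 fold change 0.43, SE 0.134, adjusted p = 0.0409), with sibling library 1 overlapping mutant library 5. psmg2 no longer passed when mutant library 1 (edgeR's adjusted p = 0.0791), 2 (0.0687) or 4 (0.0961) was left out, nor when sibling library 2 (0.0886), 4 (0.0808) or 5 (0.0934) was. Its call was also lost with upper-quartile factors (edgeR's adjusted p = 0.0758) and library size alone (0.166). The base chaperone genes psmd5 and psmd9 had 28.4, 27.2, 20.5 and 23.4 CPM in mutants, against 16.7, 16.2, 14.4 and 16.02 CPM in siblings (log2 fold change 0.65, SE 0.138, adjusted p = 0.00708) for psmd5 and 36.4, 33.3, 36.0 and 30.1 CPM in mutants, against 24.4, 25.5, 20.6 and 25.2 CPM in siblings (log2 fold change 0.51, SE 0.120, adjusted p = 0.0122) for psmd9. Neither overlapped between genotypes. psmg3, a further alpha-ring chaperone gene, went the other way, at 33.2, 26.7, 36.5 and 22.3 CPM in mutants, against 39.7, 35.2, 43.4 and 37.0 CPM in siblings, and did not pass (log2 fold change -0.39, SE 0.164, adjusted p = 0.109). It passed as lower with library number as a block (log2 fold change -0.41, adjusted p = 0.0311), scaled by library size alone (0.0239) and with a filter of 5 CPM in 4 libraries (0.0449), and it overlaps another gene that holds at least 10% of its count. psmd10, which encodes gankyrin, had 20 to 42 reads in mutants and 23 to 56 in siblings and did not pass (log2 fold change -0.40, SE 0.371, adjusted p = 0.469). It overlaps nxt2 on the other strand, which holds more reads.

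The inhibitor gene psmf1, for PI31, had 27.2, 34.5, 30.2 and 24.9 CPM in mutants, against 28.6, 22.8, 24.9 and 20.9 CPM in siblings, overlapping between genotypes, and did not pass (log2 fold change 0.26, SE 0.147, adjusted p = 0.218). psmc3ip, the gene that is no known subunit, had 4.45, 5.61, 7.94 and 4.78 CPM in mutants, against 10.2, 5.51, 8.14 and 10.8 CPM in siblings and did not pass (log2 fold change -0.60, SE 0.274, adjusted p = 0.135). It overlaps mlx on the other strand, which holds more reads. Apart from psmb9a, psme4a and psmg2, the remaining 41 called proteasome genes were called higher without each of the 8 libraries in turn.

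Genes that act with the proteasome were listed by their known roles. This list and the pathway lists below were drawn up with earlier results of these data known. Their shares of called genes are therefore descriptive only. Of 20 tested partners and regulators 9 rose and 0 fell, against 14.5% and 13.9% of all tested genes (median log2 fold change 0.43). With library number as a block 13 rose and 3 fell (17.8% and 16.6% of all tested genes). Scaled by library size alone 6 rose and 3 fell (10.3% and 19.4% of all tested genes). Without mutant library 2 or sibling library 2, 1 fell. Scaled by upper-quartile factors 7 rose and 2 fell, and with a filter of 5 CPM in 4 libraries 9 of 17 rose and 3 fell. The counts were 12 and 1 with DESeq2 and 10 and 1 with limma-voom. fbxo7, whose product binds PI31, had 139, 149, 119.6 and 136 CPM in mutants, against 57.9, 48.1, 52.6 and 56.2 CPM in siblings (log2 fold change 1.34, SE 0.107, adjusted p = 3.24e-05). pomp, the chaperone of beta ring maturation, had 266, 241, 248 and 226 CPM in mutants, against 144, 123, 135 and 139 CPM in siblings (log2 fold change 0.86, SE 0.0945, adjusted p = 2.13e-04), and tpp2, a peptidase that trims proteasome products, had 60.8, 57.8, 51.4 and 69.2 CPM in mutants, against 31.0, 33.5, 28.5 and 36.0 CPM in siblings (log2 fold change 0.89, SE 0.127, adjusted p = 8.77e-04). All 3 separated the genotypes. The deubiquitinase genes usp14 and uchl5, whose products dock on the regulatory particle, rose 1.76- and 1.47-fold. sem1, for a small subunit of the same particle, rose 1.29-fold. Others of the list, 11 in number, were not called. Among them were adrm1 (log2 fold change 0.47, edgeR's adjusted p = 0.140) and ddi2 (0.44, adjusted p = 0.0527). akirin2 was not called either (-0.24, adjusted p = 0.0960), though its mutant libraries were all below the siblings. sem1 no longer passed without mutant library 1 (edgeR's adjusted p = 0.0739), sibling library 2 (0.0581) or sibling library 4 (0.0722). Nor did it pass scaled by upper-quartile factors (edgeR's adjusted p = 0.0655) or by library size alone (0.224). All 5 genes of the NRF family of transcription factors missed the threshold as reported, and they went both ways. Members of this family activate proteasome genes in mammals. Under some alternatives nfe2l1a, nfe2l3 and nfe2l2b passed. nfe2l1a had 2.88, 2.24, 0.117 and 4.25 CPM in mutants, against 0.554, 0.442, 0.0783 and 0.755 CPM in siblings (log2 fold change 2.36, SE 0.894, adjusted p = 0.0790). These levels rest on 3 to 128 reads in mutants and 2 to 23 in siblings. nfe2l1a was higher in the mutant library of every number, but number 4 held 3 reads in the mutant and 2 in the sibling. It passed with library number as a block (log2 fold change 2.17, edgeR's adjusted p = 0.00980). nfe2l1a also passed by DESeq2 (adjusted p = 0.0197) and without mutant library 4 (edgeR's adjusted p = 0.0113). nfe2l3 had 16.2, 22.9, 17.6 and 21.4 CPM in mutants, against 25.8, 25.8, 23.8 and 33.6 CPM in siblings (log2 fold change -0.48, SE 0.161, adjusted p = 0.0504), lower in every mutant library, and passed as lower with the block (adjusted p = 0.0223). It was also called lower when scaled by upper-quartile factors (edgeR's adjusted p = 0.0298) or library size alone (0.0195). The same held with a filter of 5 CPM in 4 libraries (0.0232) and without mutant library 2 (0.0464). DESeq2 (adjusted p = 0.0483) and limma-voom (adjusted p = 0.0366) called it lower too. nfe2l2b had 2.52, 2.63, 5.37 and 5.51 CPM in mutants, against 8.96, 3.60, 7.79 and 12.7 CPM in siblings (log2 fold change -1.04, SE 0.416, adjusted p = 0.0922), with overlap, and also passed as lower with the block (adjusted p = 0.0327). Without sibling library 2 it passed as lower as well (edgeR's adjusted p = 0.0324). nfe2l1b averaged 2.11 ± 0.533 CPM in mutants and 2.61 ± 1.34 CPM in siblings and nfe2l2a 742 ± 62.7 CPM in mutants and 680.2 ± 72.2 CPM in siblings (SD, n = 4, edgeR's adjusted p = 0.602 and 0.448, and 0.5998 and 0.163 with the block). The NRF genes, usp14, uchl5, sem1, adrm1, ddi2 and akirin2 were chosen after their values were seen.

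Of 56 tested genes of the ubiquitin pathway 19 rose and 3 fell (median log2 fold change 0.27). The counts were 11 and 7 scaled by library size alone, where 10.3% and 19.4% of all tested genes were called. They were 28 and 4 with library number as a block (17.8% and 16.6% of all tested genes). DESeq2 gave 24 and 3 (17.8% and 15.4%). Without mutant library 5 or sibling library 1, 1 fell (11% and 10.3% of all tested genes fell). nsfl1c, for the p47 cofactor of the segregase VCP, had 248, 271, 243 and 227 CPM in mutants, against 145, 157, 147 and 140.1 CPM in siblings (log2 fold change 0.75, SE 0.0916, adjusted p = 3.89e-04). The polyubiquitin gene ubb had 418, 361, 421 and 434 CPM in mutants, against 189.8, 259, 244 and 214 CPM in siblings (log2 fold change 0.85, SE 0.121, adjusted p = 8.77e-04), and cops5, for the deneddylase of the COP9 signalosome, had 83.1, 72.9, 75.8 and 76.4 CPM in mutants, against 48.0, 48.5, 44.7 and 53.2 CPM in siblings (log2 fold change 0.67, SE 0.0977, adjusted p = 0.00105). In each, mutants lay above siblings. The share that rose, 33.9%, was above the 14.5% of all tested genes, and it was 45.0% among the partners and 86.3% among the proteasome genes themselves. Against a fold of 1.5 (glmTreat) 1 of the 56 rose and 1 fell, while 5.35% and 4.61% of all tested genes did. nsfl1c (glmTreat adjusted p = 0.108), ubb (0.0636) and cops5 (0.339) did not pass it. Of the 20 partners 3 rose and 0 fell by glmTreat.

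Of 24 tested genes of MHC class I presentation, 8 (33.3%) rose and 2 (8.33%) fell, against 14.5% and 13.9% of all tested genes (median log2 fold change 0.18). The 8 were calr3b, calr3a, calr, pdia3, blmh, thop1, mhc1zea and tap2a, and the 2 were mhc1lia and mhc1zaa. The 14 not called were b2m, b2ml, mhc1zba, tap1, tap2t, tapbp.1, tapbp.2, tapbpl, erap1a, erap1b, erap2, canx, lnpep and npepps. The rise was thus not shared by most genes of the list. The counts of rising and falling genes were 7 and 3 scaled by library size alone (10.3% and 19.4% of all tested genes). They were 11 and 3 with library number as a block (17.8% and 16.6% of all tested genes). Without mutant library 1 or 2 or sibling library 1, 2 or 4, 1 fell (10.3% to 11.2% of all tested genes fell). Against a fold of 1.5 (glmTreat) 1 of the 24 rose and 1 fell, while 5.35% and 4.61% of all tested genes did. calr3a, given below, did not pass glmTreat (adjusted p = 0.0747). The calreticulin gene calr3b had 305, 451, 424 and 408 CPM in mutants, against 129.9, 183, 141 and 177 CPM in siblings (log2 fold change 1.33, SE 0.160, adjusted p = 3.46e-04). Its paralog calr3a had 263, 342, 295 and 270.3 CPM in mutants, against 171, 177, 151 and 167 CPM in siblings (log2 fold change 0.81, SE 0.110, adjusted p = 6.81e-04), and both separated the genotypes. The class I gene mhc1lia fell to 3.91, 3.99, 3.23 and 2.03 CPM in mutants, against 10.6, 11.6, 13.5 and 9.45 CPM in siblings (log2 fold change -1.78, SE 0.252, adjusted p = 8.54e-04). Among 26 tested interferon signalling genes 4 rose and 4 fell (median log2 fold change 0.02), at 15.4% each close to the 14.5% and 13.9% of all tested genes. This closeness did not hold in every fit. With library number as a block 9 of the 26 rose and 7 fell, while 17.8% and 16.6% of all tested genes did. Scaled by library size alone, 1 of these 26 rose and 8 fell, while 10.3% and 19.4% of all tested genes did. With DESeq2 7 rose and 4 fell, while 17.8% and 15.4% of all tested genes did. The 4 rises became 2 without mutant library 1, mutant library 5 or sibling library 4 (11.9%, 13.3% and 12.4% of all tested genes rose). The guanylate-binding gene gbp1 had 339, 422, 289 and 297 CPM in mutants, against 132, 152, 120.0 and 119.7 CPM in siblings (log2 fold change 1.36, SE 0.144, adjusted p = 1.69e-04). irf7, a regulator of type I interferon genes, had 66.0, 55.5, 73.6 and 68.5 CPM in mutants, against 156, 192, 123 and 125 CPM in siblings (log2 fold change -1.18, SE 0.162, adjusted p = 7.27e-04), and mxa, an interferon-induced antiviral gene, had 0.767, 0.965, 0.311 and 0.631 CPM in mutants, against 3.88, 3.50, 3.37 and 2.04 CPM in siblings (log2 fold change -2.25, SE 0.404, adjusted p = 0.00306). gbp1 was thus higher and irf7 and mxa lower in every mutant library.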

How the data were processed

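Per the file headers, the authors deposited raw counts of reads for each Ensembl gene in 8 libraries, with gene positions and lengths. The submitters' processing notes name the build GRCz11, featureCounts 1.5.0, HISAT2 2.0.5 and StringTie 1.3.3b, without roles. No source used here gives the strand setting. RNA was polyadenylated and libraries came from a low-input SMART-Seq v4 kit, per the labels' protocols. A further 16 columns with values per library were not used. Columns were assigned to genotypes by name. Their numbers differ from those of the titles, and columns were matched to genotype only.

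Of 24221 genes, 16086 passed filterByExpr (minimum count 10). TMM scaling preceded the test in edgeR 4.0.16 (quasi-likelihood, two-sided, no covariates) in R 4.3.3, with Benjamini-Hochberg adjustment over all tested genes. The standard error is the log2 fold change divided by the square root of F. The procedure was tested on simulated counts. Ratios were tested by exact permutation of libraries. Deviations from the genotype mean correlated across genes at 0.124 to 0.288 between libraries sharing a number and at -0.182 to -0.00667 between others. The numbers were therefore taken to pair libraries, on the column names and this correlation rather than the labels, and a blocked fit was added. Within a genotype, any pair of libraries differed by a chi-square of 45.8 to 94.8 for each degree of freedom, so none repeated another within counting noise. The spread behind each p-value is that between libraries, which the sample titles call biological replicates. That spread may also hold technical variation.

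Alternatives were other scalings, filters and tests (DESeq2 1.42.0, limma-voom with limma 3.58.1, glmTreat), the replicate block and each library left out. Leaving out both libraries numbered 2 and the paralog ratios were added after the data were seen. Values per library are given for each immunoproteasome gene, the 3 smallest p of every other class and of each pathway list, and paralogs that differ in call. The genes and lists were chosen with earlier results of these data known. Gene names match the reference names for 52 of 52 IDs, ignoring case and paralog letters. Overlap with another gene was noted where the other holds at least 10% of the count. Promoter and protein sequences were not analysed here.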

Additional observations from a re-analysis of the deposited data

Results flagged for a closer look

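Dixon's test for 4 values, which flags about 1 group in 20 by chance, was applied to 178 groups of values, and 14 stood out. psmb12 in sibling library 4 was 11.3 CPM, where the other siblings were at 19.9 to 21.3 CPM. psmb3 in sibling library 1 was 220 CPM, where the others were at 206 CPM. In the same library psmb2 was 154 CPM (others 123 to 127) and psmd6 was 160 CPM (others 144 to 146). Sibling library 2 had 259 CPM of psmd3 (others 211 to 215), 122 CPM of usp14 (others 88.0 to 93.7) and 4.62 CPM of nfe2l1b (others 1.84 to 2.02). Sibling library 4 had 21.7 CPM of psmc6 (others 16.6 to 17.2) and 57.6 CPM of uchl5 (others 66.8 to 68.5). Mutant library 1 had 106 CPM of sem1 (others 86.7 to 88.2). The alpha ring took 0.177% of counts in mutant library 5 and 0.201% to 0.203% in the other mutants. Activator genes took 0.0214% in sibling library 2 and 0.0189% to 0.0192% in the other siblings. The log2 ratio of psmb8a to psmb5 was 2.68 in mutant library 2, where the other mutants had 0.929 to 1.19, and 4.19 in sibling library 2, where the other siblings had 0.410 to 0.845. The ratio in sibling library 2 rests on 29 reads of psmb5.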

How the results depend on the processing

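Over the alternatives other than glmTreat, 40 to 44 proteasome genes rose and 0 or 1 fell. Against a fold of 1.5 (glmTreat) 11 proteasome genes rose, and 861 of all tested genes were higher and 742 lower. The 1 lower gene appeared scaled by library size alone, with a filter of 5 CPM in 4 libraries and with the replicate block, and was psmg3 each time. Each library left out in turn gave 41 to 43 higher and 0 lower proteasome genes and, over all tested genes, 1919 to 2203 higher and 1671 to 2093 lower. With the replicate block 44 proteasome genes rose and 1 fell, and 2857 of all tested genes were higher and 2673 lower. It changed no other call on a proteasome gene. The proteasome share was higher in mutants by 0.280 percentage points, by 0.264 to 0.301 with a library left out, and by 0.327 when genes over 1% of a library were left out of the total. The psmb8a to psmb5 difference of -0.03 turned to 0.47 without both libraries numbered 2, and ran from -0.44 to 0.88 with 1 library left out. The psmb9a to psmb6 difference ran from 0.03 to 0.49 and that of psmb10 to psmb7 from 0.41 to 0.54 with 1 library left out. With 3 against 4 libraries, 3 against 3, or 4 pairs, the exact tests cannot go below 0.0571, 0.1 and 0.125, so they say nothing about stability. The log2 fold change of psme4b was -0.033 scaled by library size alone, against 0.14 as reported. Scaled so, nfe2l2a was at -0.045, against 0.13 as reported. The log2 fold change of nfe2l1b, -0.31 as reported, was 0.0099 without both libraries numbered 2 and -0.44 to 0.14 with 1 library left out. For 71 genes, the tested proteasome genes and some of the named partner and pathway genes, 1273 values under alternatives were compared with those reported. Of these values, 1176 kept direction and side of the threshold, 77 no longer passed, 16 newly passed and 4 changed sign. The causes of these shifts were not tested. Low read numbers limit psma5, psmd10, psme4a and nfe2l1a.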
